A study of Mus musculus with 24 samples.

Results

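Medial prefrontal cortex of mice kept in social isolation was compared between 2 arms of 4 libraries each: SI_EE, isolated mice given an enriched environment, and SI_WT, isolated mice of the arm labelled WT. The 8 libraries were taken by their titles from 24 libraries in 6 groups (these 2, SI_Con, GH_EE, GH_WT and GH_Con), and every difference is SI_EE minus SI_WT. All carry the genotype label 5xFAD, a transgenic line in which Thy1 promoter fragments drive transgenes that include mutant human APP in neurons, so the label WT in the titles stands beside a transgenic genotype. The sources used here explain neither WT nor GH, give no age or sex, and name resocialization only in the series title, so the second group is called the WT arm. Total RNA was sequenced, and the authors deposited whole-number read counts per gene. Each comparison was made with all 4 SI_EE libraries and again without SI_EE 1, because SI_EE 1 holds cerebellar transcripts.

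The medial prefrontal cortex is a frontal area used in social behaviour, memory and stress responses. Enriched housing offers novelty, exercise and company, and in rodents it is known for changes in synapses, growth factors and blood vessels. In the amyloid line, mutant human APP raises amyloid production, and microglia and astrocytes gather around the deposits.

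Total counts ran from 34968646 to 37860026 reads in SI_EE and from 33683587 to 51274917 reads in SI_WT. A principal component analysis of the 8 libraries put SI_EE 1 alone on the first component (34.4% of the variance) and SI_WT 4 alone on the second (19.1%). SI_WT 4 had the strongest tilt towards short transcripts, with length taken as the merged annotated exons of each gene. The rank correlation across genes between this length and a library's deviation from the mean was -0.352 in SI_WT 4. It was 0.047 to 0.136 in SI_WT 1 to 3 and -0.097 to 0.191 in SI_EE. Outside these arms the lowest values were -0.327 and -0.276 in SI_Con 2 and SI_Con 3 and -0.245 in GH_Con 2. Xist, the X-inactivation RNA, was read at 791 CPM (CPM: read counts scaled to a common library size) in SI_EE 4 and at 655 and 758 CPM in SI_WT 1 and SI_WT 4, and at no more than 1.71 CPM in the other 5 libraries, so the arms held 1 and 2 libraries with the female pattern. The 24 libraries share 1 batch date. Nothing in the labels ties a library to a separate animal, so the p-values cover the spread between these samples, which may be technical.

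The human APP entry came first as a check on the label WT. This entry, spelled in human capitals, is the amyloid precursor and was read in all 8 libraries, at 337, 1814, 3218 and 3702 CPM in SI_EE 1 to 4, against 4685, 4265, 2881 and 2199 CPM in SI_WT 1 to 4. The ranges overlapped, with SI_EE 1 the lowest of the 8. The mean log2 CPM was 10.68 in SI_EE and 11.71 in SI_WT, a difference of -1.03 (two-sided exact permutation test over 70 assignments, p = 0.257, smallest possible 0.0286), and without SI_EE 1 it was -0.27 (exact permutation p = 0.514). Mouse App, the endogenous precursor, was read at 763, 1406, 1478 and 1486 CPM in SI_EE 1 to 4, against 1602, 1352, 1437 and 936 CPM in SI_WT 1 to 4, overlapping between arms. Thy1, a neuronal surface protein whose promoter drives the transgene, was read at 644, 1328, 1616 and 1809 CPM in SI_EE 1 to 4, against 2203, 2257, 1522 and 3477 CPM in SI_WT 1 to 4. Among the SI_WT libraries only SI_WT 3 lay within the SI_EE range. The log2 fold change of Thy1 was -0.81 ± 0.30 with all 8 libraries and -0.57 ± 0.27 without SI_EE 1 (SE), with unadjusted edgeR p of 0.0121 and 0.0473. Reads shared between the human and mouse copies, or between Thy1 and the transgene, could have been counted under either.

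**Figure D1:**
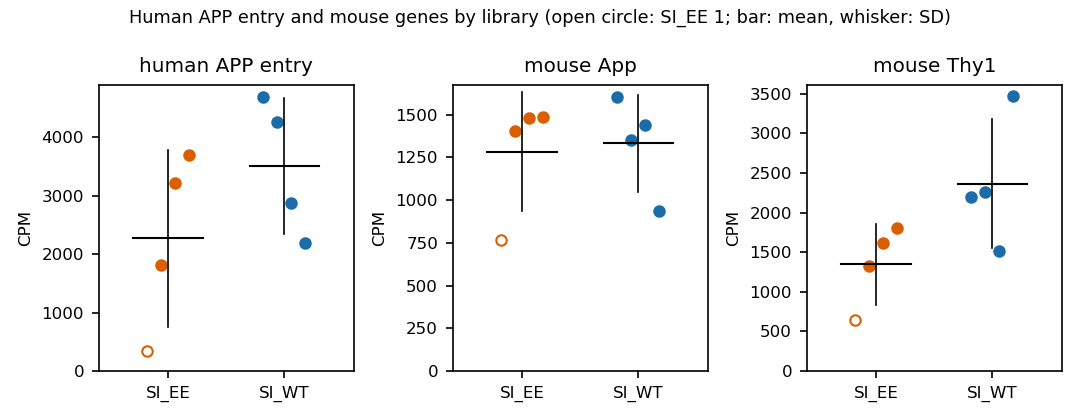
Read level in CPM (vertical axis, from 0) of the human APP entry and of mouse App and Thy1, with SI_EE left of SI_WT. Each point is a library, the open circle is SI_EE 1, the bar is the mean and the whisker the SD. SI_EE 1 has the lowest level of human APP and of mouse App, and for both the ranges of the arms overlap.

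Across the transcriptome no gene passed the threshold. With all 8 libraries, edgeR's quasi-likelihood test called 0 of 20354 genes at a Benjamini-Hochberg adjusted p under 0.05 (0% in either direction), and the smallest adjusted p was 0.256. At an unadjusted p under 0.05 there were 2070 genes (10.2%), 1365 higher in SI_EE (6.71%) and 705 lower (3.46%), beside about 1018 that chance alone would give. SI_EE 1 was the highest of the 8 libraries in 1048 of the 1365. DESeq2 called 86 genes, 71 higher (0.349%) and 15 lower (0.0737%), with SI_EE 1 the highest of the 8 in 53 of the 86, and limma-voom called 0. Without SI_EE 1, edgeR called 0 of 20718 genes (0% in either direction; smallest adjusted p 0.772), and 1320 genes had an unadjusted p under 0.05 (6.37%), 647 higher (3.12%) and 673 lower (3.25%), beside about 1036 by chance. DESeq2 then called 18 genes, 11 higher (0.0531%) and 7 lower (0.0338%), of which 16 were also called with SI_EE 1, and limma-voom called 0. All 7 lower calls are Gm genes, an entry with no symbol or the pseudogene Usf2-ps1, with DESeq2 log2 fold changes of -20.32 to -25.63. On the higher side Gm43302 and an entry with no symbol were at 22.95 and 23.37. No effect size is read from values this extreme. Among the 18, 9 are predicted Gm genes or entries with no symbol. The others include Slc13a4, Myoc, Flt4, Svil and Tns1, described below, with adjusted p of 0.0173, 0.0361, 0.0173, 0.0461 and 0.0461 by DESeq2. On simulated counts for this comparison DESeq2 called 28 unchanged genes, so its calls are given with caution. As background for the counts below, the arms did not overlap for 3.76% of all genes with all 8 libraries and for 6.7% without SI_EE 1. SI_EE lay above for 2.26% and 3.55% and below for 1.51% and 3.15%, in the same order. The log2 fold change was above 0 for 51.2% of genes and below 0 for 48.8% with all 8 libraries, and above 0 for 51.3% and below 0 for 48.7% without SI_EE 1. Since edgeR called none, with adjusted p of at least 0.256 and 0.772 for every gene in these comparisons, the genes below are given by their values, and words such as higher and lower describe means.

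SI_EE 1 carried transcripts of the cerebellum, a region outside the labelled tissue. Of 19 measured cerebellar granule and Purkinje cell genes, 19 were higher in SI_EE with all 8 libraries (median log2 fold change 3.51, beside 0.008 over all genes tested), and 8 of 19 without SI_EE 1 (median -0.06, beside 0.009 over all genes). Their mean log2 CPM was 8.19 in SI_EE 1, 1.84 to 2.27 in SI_EE 2 to 4 and 1.64 to 3.0 in SI_WT. Cbln1, the synapse organiser that granule cells secrete, was read at 609, 2.56, 8.92 and 12.2 CPM in SI_EE 1 to 4, against 3.60, 5.84, 6.81 and 2.60 CPM in SI_WT 1 to 4. En2, a homeobox factor of the midbrain and hindbrain, was read at 85.8, 1.53, 1.35 and 0.929 CPM in SI_EE 1 to 4, against 0.819, 0.441, 1.10 and 1.16 CPM in SI_WT 1 to 4. Zic1, a zinc finger factor of granule cells, was read at 719, 8.5, 21.9 and 36.1 CPM in SI_EE 1 to 4, against 8.79, 5.97, 11.7 and 7.15 CPM in SI_WT 1 to 4. SI_EE 1 stood far above the other 7 libraries for each of them. Some genes outside the list had the same pattern: Tfap2b, a factor of cerebellar interneurons, was at 30.2 CPM in SI_EE 1 and at 1.09 CPM or less in the other 7. Ltbp2, a latent TGF-beta binding protein, was at 50.2 CPM in SI_EE 1 and at 0.556 CPM or less in the other 7. Forebrain pyramidal neuron genes were lowest in SI_EE 1, with a mean log2 CPM of 5.77, against 7.79 to 7.90 in SI_EE 2 to 4 and 7.28 to 8.01 in SI_WT.

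**Figure D2:**
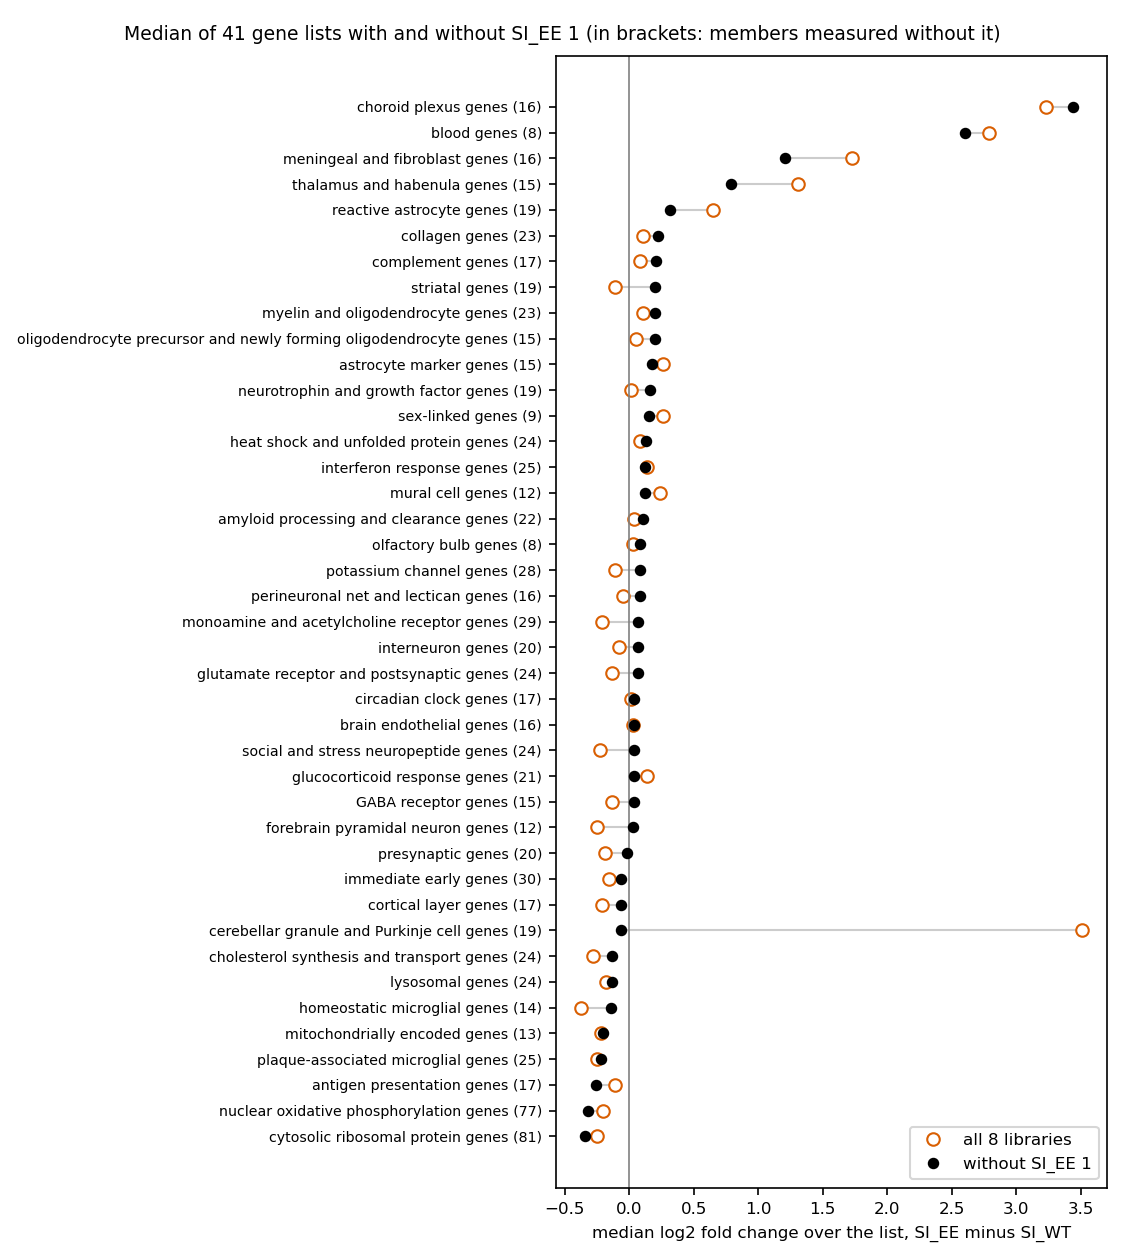
Median log2 fold change (horizontal axis, SI_EE minus SI_WT) of 41 gene lists, ordered by the value without SI_EE 1 (filled points); open points are all 8 libraries, and brackets hold the number of members measured. The cerebellar list is at 3.51 with all 8 libraries and at -0.06 without SI_EE 1, while the meningeal, choroid plexus and blood lists stay above 1.

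The clearest difference that did not rest on SI_EE 1 lay in the list of meningeal and fibroblast genes. All 16 measured meningeal and fibroblast genes had a higher mean in SI_EE, with a median log2 fold change of 1.73 with all 8 libraries and 1.21 without SI_EE 1. In both comparisons 9 of the 16 had arms that did not overlap, SI_EE above SI_WT, beside 2.26% of all genes with SI_EE 1 and 3.55% without it. At an unadjusted p under 0.05 there were 14 of 16 with SI_EE 1 and 10 of 16 without it, and none passed the adjusted threshold. The mean log2 CPM of the list was 3.79, 2.25, 2.53 and 2.69 in SI_EE 1 to 4, against 1.40, 0.90, 0.94 and 1.86 in SI_WT 1 to 4. Every SI_EE library thus lay above every SI_WT library. The summed level of the 16 genes was 450 to 1139 CPM in SI_EE and 268 to 478 CPM in SI_WT, where the prostaglandin synthase Ptgds makes up most of the sum and the arms overlap. Of the 16 genes, only the transporter Slc47a1 was at 0 in any library (SI_WT 2 and SI_WT 3). In bulk tissue, fewer cells of a type and less RNA per cell cannot be told apart, and how much membrane was dissected with the cortex was not tested.

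Slc13a4, a sodium-coupled sulfate transporter of meningeal cells (chr6:35267957-35308131, minus strand; GRCm38), was read at 13.1, 6.51, 8.76 and 7.98 CPM in SI_EE 1 to 4, against 1.26, 1.05, 2.09 and 3.04 CPM in SI_WT 1 to 4. The lowest SI_EE library was above the highest SI_WT library. Its log2 fold change was 2.29 ± 0.45 with all 8 libraries and 2.07 ± 0.47 without SI_EE 1 (SE), with unadjusted edgeR p of 4.85e-05 and 0.000261. Means in the other 4 groups were 5.22 CPM in SI_Con, 5.67 CPM in GH_EE, 6.38 CPM in GH_WT and 5.67 CPM in GH_Con, between those of the 2 arms.

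Ogn, the small leucine-rich proteoglycan osteoglycin (chr13:49608046-49624501, plus strand), was read at 11.1, 4.0, 3.60 and 4.56 CPM in SI_EE 1 to 4, against 1.26, 1.24, 1.48 and 2.11 CPM in SI_WT 1 to 4. Dcn, the collagen-binding proteoglycan decorin (chr10:97479609-97518143, plus strand), was read at 18.8, 5.91, 6.38 and 6.94 CPM in SI_EE 1 to 4, against 2.94, 1.62, 3.34 and 3.07 CPM in SI_WT 1 to 4. Fmod, the related fibromodulin (chr1:134037254-134048277, plus strand), was read at 26.7, 8.31, 7.65 and 10.7 CPM in SI_EE 1 to 4, against 2.96, 2.78, 3.90 and 4.25 CPM in SI_WT 1 to 4. In all 3 proteoglycans the arms did not overlap, and SI_EE 1 was the highest library. The log2 fold change of Ogn was 1.93 ± 0.39 with all 8 libraries and 1.42 ± 0.35 without SI_EE 1 (SE), that of Dcn 1.79 ± 0.38 with all 8 libraries and 1.22 ± 0.33 without SI_EE 1 (SE) and that of Fmod 1.94 ± 0.43 with all 8 libraries and 1.36 ± 0.38 without SI_EE 1 (SE). Means of Dcn in the other groups were 5.04 CPM in SI_Con, 5.61 CPM in GH_EE, 8.45 CPM in GH_WT and 6.42 CPM in GH_Con, above SI_WT in each.

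Of 23 measured collagen genes, 4 had arms that did not overlap in either comparison, SI_EE above SI_WT. Over all genes this share was 2.26% with SI_EE 1 and 3.55% without it. Col5a2, a chain of fibrillar type V collagen (chr1:45374321-45503282, minus strand), was read at 4.89, 2.78, 2.65 and 3.20 CPM in SI_EE 1 to 4, against 0.879, 1.46, 1.05 and 1.71 CPM in SI_WT 1 to 4, with a log2 fold change of 1.41 ± 0.31 with all 8 libraries and 1.18 ± 0.31 without SI_EE 1 (SE). Col3a1, the type III chain, ranged from 1.17 to 3.88 CPM in SI_EE and 0.280 to 0.955 CPM in SI_WT, and Col1a2, a type I chain, from 7.49 to 19.9 CPM in SI_EE and 4.27 to 6.51 CPM in SI_WT. Over the whole family, 14 of 23 were higher in SI_EE with all 8 libraries (median 0.11) and 16 of 23 without SI_EE 1 (median 0.22). The fourth was Col18a1, a collagen of basement membranes, with a log2 fold change of 2.78 with all 8 libraries and 0.50 without SI_EE 1. Col1a1, the other type I chain, overlapped between arms. Col1a1, Col1a2 and Col3a1 belong to the meningeal list too.

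Myoc, the secreted glycoprotein myocilin (chr1:162639155-162649693, plus strand), was read at 7.39, 5.75, 11.2 and 13 CPM in SI_EE 1 to 4, against 0.839, 2.26, 2.58 and 3.88 CPM in SI_WT 1 to 4, without overlap. Here SI_EE 4 and SI_EE 3 were the highest libraries and not SI_EE 1. Its log2 fold change was 1.98 ± 0.48 with all 8 libraries and 2.08 ± 0.52 without SI_EE 1 (SE). Rarg, retinoic acid receptor gamma (chr15:102234938-102257517, minus strand), was read at 14.9, 13.7, 10.4 and 13.6 CPM in SI_EE 1 to 4, against 8.89, 8.76, 8.85 and 8.80 CPM in SI_WT 1 to 4, with a log2 fold change of 0.58 ± 0.13 with all 8 libraries and 0.52 ± 0.13 without SI_EE 1 (SE). The 4 SI_WT values of Rarg were close together and below every SI_EE value.

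Svil, Amotl2, Tns1 and Kank1 were named for their small unadjusted p and come from none of the lists. Svil, the membrane-linked actin and myosin binder supervillin, was read at 16.5, 11, 13.2 and 11.5 CPM in SI_EE 1 to 4, against 7.65, 8.32, 6.94 and 5.96 CPM in SI_WT 1 to 4. Amotl2, a junction protein of the angiomotin family (chr9:102716672-102733418, plus strand), was read at 34.2, 22.9, 25.6 and 21.2 CPM in SI_EE 1 to 4, against 13.4, 17.5, 17.3 and 10.9 CPM in SI_WT 1 to 4. Neither overlapped between arms, and the log2 fold changes were 0.85 ± 0.17 with all 8 libraries and 0.72 ± 0.16 without SI_EE 1 (SE) for Svil and 0.81 ± 0.16 with all 8 libraries and 0.66 ± 0.16 without SI_EE 1 (SE) for Amotl2. Tns1, the focal adhesion protein tensin 1 (chr1:73910231-74124449, minus strand), was read at 50.4, 53.6, 68.8 and 69.5 CPM in SI_EE 1 to 4, against 29.3, 39.5, 50.8 and 42.2 CPM in SI_WT 1 to 4, and SI_WT 3 lay just above SI_EE 1. Kank1, an adaptor between adhesions and microtubules (chr19:25236975-25434496, plus strand), was read at 14.9, 13.8, 17.1 and 17.7 CPM in SI_EE 1 to 4, against 9.43, 12.7, 10.2 and 11.1 CPM in SI_WT 1 to 4. The log2 fold change was 0.58 ± 0.15 with all 8 libraries and 0.66 ± 0.15 without SI_EE 1 (SE) for Tns1 and 0.55 ± 0.14 with all 8 libraries and 0.58 ± 0.15 without SI_EE 1 (SE) for Kank1.

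Flt4, the receptor for vascular endothelial growth factor C that marks lymphatic endothelium (chr11:49609263-49652739, plus strand), was read at 4.54, 5.77, 6.46 and 6.50 CPM in SI_EE 1 to 4, against 3.88, 3.28, 4.03 and 3.97 CPM in SI_WT 1 to 4. The arms did not overlap, and the log2 fold change was 0.62 ± 0.16 with all 8 libraries and 0.72 ± 0.15 without SI_EE 1 (SE), with unadjusted edgeR p of 0.000643 and 0.000119. Its means in the other groups were 5.73 CPM in SI_Con, 4.61 CPM in GH_EE, 4.14 CPM in GH_WT and 4.51 CPM in GH_Con. The brain endothelial list as a whole was split, with 8 of 16 genes higher in both comparisons (median 0.03 and 0.04) and 1 non-overlapping gene, Cdh5, the endothelial cadherin, at 17.3 to 22.2 CPM in SI_EE and 14.7 to 16.5 CPM in SI_WT. Podxl, the sialomucin podocalyxin, was at 46.9, 47.9, 80.8 and 69.6 CPM in SI_EE 1 to 4, against 52.2, 50.1, 49 and 43.1 CPM in SI_WT 1 to 4, high in SI_EE 3 and SI_EE 4. Of 12 mural cell genes, 11 were higher with all 8 libraries (median 0.24) and 9 without SI_EE 1 (median 0.12). In both comparisons 4 did not overlap, SI_EE above SI_WT, beside 2.26% of all genes with SI_EE 1 and 3.55% without it. These 4 were Anpep, an aminopeptidase of pericytes and fibroblasts (3.62 to 4.94 CPM in SI_EE and 1.90 to 2.72 CPM in SI_WT), the smooth muscle genes Myh11 (9.42 to 19.2 CPM in SI_EE and 6.86 to 9.05 CPM in SI_WT) and Acta2 (15.2 to 23.3 CPM in SI_EE and 8.37 to 14.5 CPM in SI_WT), and Cnn1. Pericyte genes of the list, Pdgfrb, Rgs5, Kcnj8 and Abcc9, overlapped between arms.

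**Figure D3:**
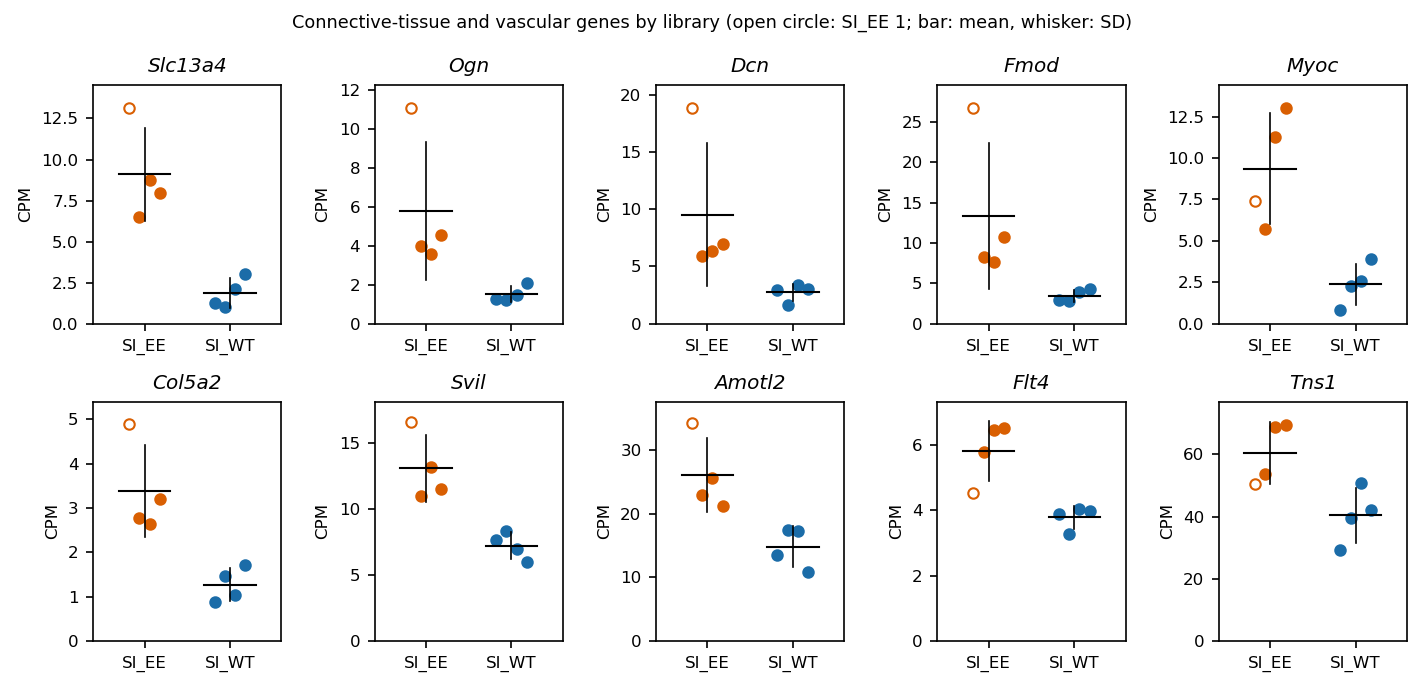
Read level in CPM (vertical axes, from 0) of 10 connective-tissue, cytoskeletal and vascular genes by library, with SI_EE left of SI_WT; the open circle is SI_EE 1, the bar the mean and the whisker the SD. In 9 of the 10 panels every SI_EE library lies above every SI_WT library, and in Tns1 SI_WT 3 overlaps SI_EE 1.

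The same list was also measured in the other groups. The meningeal list averaged 2.81 ± 0.67 log2 CPM in SI_EE (2.49 ± 0.22 without SI_EE 1, n = 3) and 1.27 ± 0.45 in SI_WT (SD, n = 4 each), while SI_Con averaged 2.21 ± 0.51, GH_EE 2.41 ± 0.42, GH_WT 2.39 ± 0.87 and GH_Con 2.41 ± 0.48. SI_WT had the lowest mean of the 6 groups for this list. SI_WT 4, whose short-transcript tilt was given above, had the highest meningeal value of its arm, and without both SI_EE 1 and SI_WT 4 the list stood at 16 of 16 genes higher with a median of 1.37. With sex as a covariate the median without SI_EE 1 was 1.29.

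Genes of the choroid plexus, blood and thalamus were also higher in SI_EE than in SI_WT, but unevenly between the SI_EE libraries. SI_WT had the lowest mean log2 CPM of the 6 groups for each of these lists. The choroid plexus list averaged 0.63 in SI_EE and -1.42 in SI_WT, beside 0.46 in SI_Con, -0.49 in GH_EE, 0.15 in GH_WT and -0.05 in GH_Con. Single libraries reached 3.49 in SI_Con and 2.57 in GH_WT. All 16 choroid plexus genes had a higher mean (median 3.23 with all 8 libraries and 3.44 without SI_EE 1). In both comparisons 3 of them did not overlap, beside 2.26% of all genes with SI_EE 1 and 3.55% without it. The summed level was 206 to 1011 CPM in SI_EE and 196 to 222 CPM in SI_WT. Their mean log2 CPM was 0.78, -1.09, 2.66 and 0.18 in SI_EE 1 to 4, against -1.53, -1.40, -1.28 and -1.48 in SI_WT 1 to 4. Ttr, the thyroid hormone carrier transthyretin that this epithelium secretes, was read at 69.2, 3.05, 522 and 14.2 CPM in SI_EE 1 to 4, against 1.08, 5.67, 1.68 and 10.2 CPM in SI_WT 1 to 4. SI_EE 3 was by far the highest, and SI_EE 2 was within the SI_WT range for Ttr. Kl, the co-receptor klotho, was read at 5.07, 1.28, 25.2 and 3.83 CPM in SI_EE 1 to 4, against 0.5, 0.854, 0.970 and 0.955 CPM in SI_WT 1 to 4, Kcnj13, an inward rectifier channel, at 1.31, 0.245, 4.21 and 0.437 CPM in SI_EE 1 to 4, against 0.240, 0, 0.0510 and 0 CPM in SI_WT 1 to 4, and Cldn2, a pore-forming claudin, at 0.580, 0.109, 4.21 and 0.547 CPM in SI_EE 1 to 4, against 0, 0, 0 and 0.116 CPM in SI_WT 1 to 4. Without SI_EE 1 and SI_EE 3 the list median was 1.01, with 14 of 16 genes higher, so 1 library set most of its size. From 2 to 4 of the 16 genes were at 0 in each SI_WT library, and from 0 to 2 in each SI_EE library.

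Blood genes were higher in SI_EE in 6 of 7 measured (median 2.79) and in 7 of 8 without SI_EE 1 (median 2.60). The alpha globin Hba-a1 was read at 7.18, 14.1, 6.43 and 0.410 CPM in SI_EE 1 to 4, against 0.699, 0.551, 1.40 and 1.42 CPM in SI_WT 1 to 4, and the beta globin Hbb-bs at 10.3, 14.5, 7.07 and 0.629 CPM in SI_EE 1 to 4, against 0.360, 1.02, 1.25 and 1.85 CPM in SI_WT 1 to 4. SI_EE 1 to 3 were above every SI_WT library for both globins, whereas SI_EE 4 was within or below the SI_WT range. Globin copies are nearly identical, so the split between them is uncertain. The list averaged 1.56 log2 CPM in SI_EE and -0.13 in SI_WT, beside 0.41 in SI_Con, 0.40 in GH_EE, 1.63 in GH_WT and 1.89 in GH_Con.

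Thalamus and habenula genes were higher in 13 of 15 in both comparisons, with medians of 1.31 and 0.79. The list mean was 3.43, 1.46, 2.51 and 2.57 log2 CPM in SI_EE 1 to 4, against 1.38, 1.57, 1.40 and 1.52 in SI_WT 1 to 4. SI_EE 2 was at the SI_WT level. Group means were 2.49 in SI_EE and 1.47 in SI_WT, beside 1.78 in SI_Con, 1.76 in GH_EE, 3.07 in GH_WT and 1.73 in GH_Con. Lhx9, a homeobox factor of the thalamus, was read at 20.8, 0, 1.59 and 4.86 CPM in SI_EE 1 to 4, against 0.0999, 0.110, 0.0510 and 0.0868 CPM in SI_WT 1 to 4. Agt, the angiotensin precursor that astrocytes make in deep brain regions, was read at 86.6, 8.63, 11.1 and 12.4 CPM in SI_EE 1 to 4, against 3.36, 5.12, 6.63 and 6.83 CPM in SI_WT 1 to 4, without overlap. Olfactory bulb genes were higher in 5 of 8 measured (median 0.03) and in 7 of 8 without SI_EE 1 (median 0.08). Striatal genes were higher in 4 of 19 with all 8 libraries (median -0.11) and in 18 of 19 without SI_EE 1 (median 0.20), none of them at an unadjusted p under 0.05. Differences in dissected tissue between libraries were not tested.

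**Figure D4:**
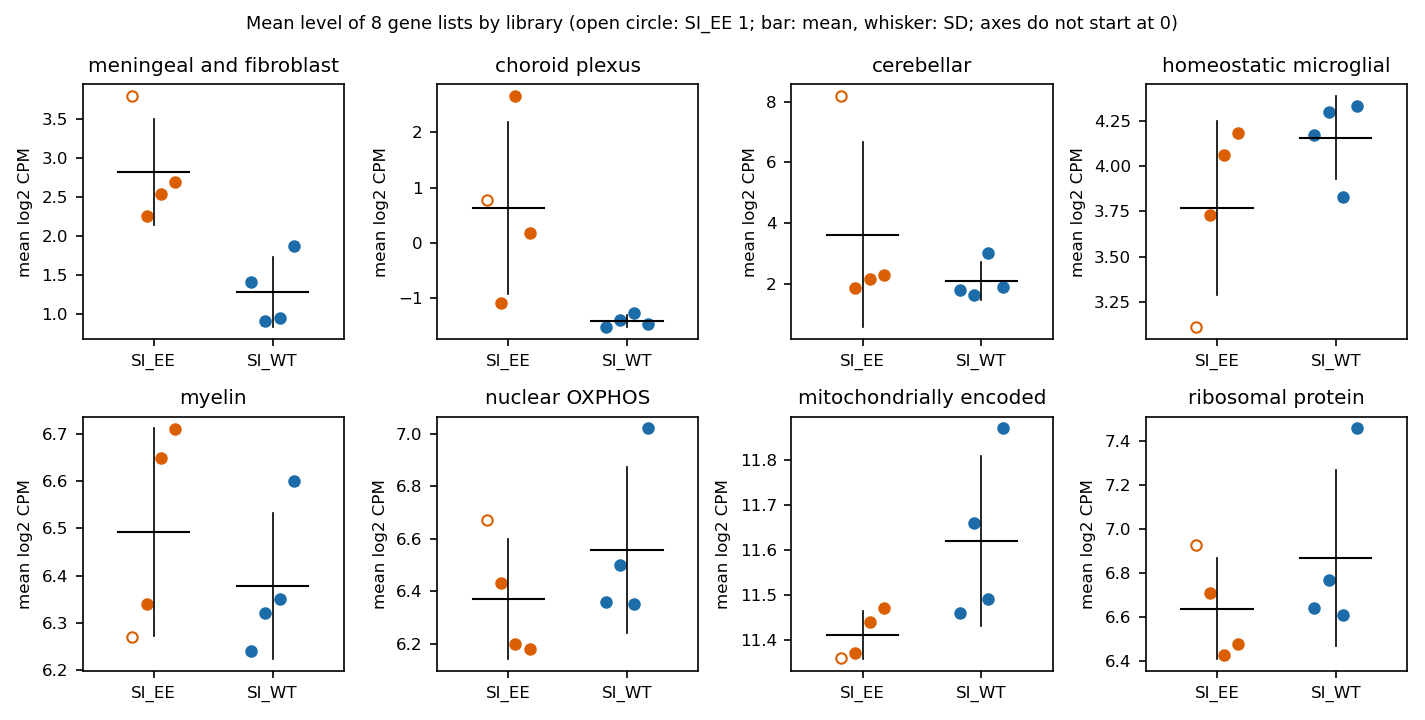
Mean log2 CPM (vertical axes, not from 0) of 8 gene lists in each library, with SI_EE left of SI_WT; the open circle is SI_EE 1, the bar the mean and the whisker the SD. In the meningeal panel the arms are separate, in the cerebellar panel SI_EE 1 is alone at 8.19, and in the nuclear OXPHOS and ribosomal protein panels SI_WT 4 is the highest library.

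On the lower side, genes of the mitochondrial respiratory chain and of the ribosome had lower means in SI_EE, by small amounts. Of 77 nuclear genes of oxidative phosphorylation, 76 were lower in both comparisons, with medians of -0.20 with all 8 libraries and -0.32 without SI_EE 1. Without SI_EE 1, 29 of the 77 had an unadjusted p under 0.05 on the lower side, beside 3.25% of all genes, and 10 did not overlap, beside 3.15%. With it, the counts were 6 (beside 3.46%) and 2 (beside 1.51%). All 81 cytosolic ribosomal protein genes were lower in both (medians -0.25 and -0.34), with 5 and 22 at an unadjusted p under 0.05 and 2 and 8 without overlap. The 13 mitochondrially encoded genes were all lower too (medians -0.22 and -0.20), and 4 did not overlap in either comparison.

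SI_WT 4 was the highest library for each of these lists. The nuclear respiratory genes had a mean log2 CPM of 6.67, 6.43, 6.20 and 6.18 in SI_EE 1 to 4, against 6.36, 6.50, 6.35 and 7.02 in SI_WT 1 to 4. Ribosomal protein genes took 0.878% to 1.33% of reads in SI_EE and 0.949% to 1.73% in SI_WT, with 1.73% in SI_WT 4. Without SI_EE 1 and SI_WT 4 the medians were -0.14 for the nuclear respiratory list (5 of 77 higher), -0.12 for the ribosomal list (7 of 81 higher) and -0.11 for the mitochondrially encoded list (1 of 13 higher). Transcripts of ribosomal proteins and of many respiratory subunits are short. SI_EE 3 and SI_EE 4 had the lowest means for the nuclear respiratory and ribosomal lists. They also had the highest length correlations of the 8 libraries, 0.188 and 0.191. The part of the length tilt of SI_WT 4, SI_EE 3 and SI_EE 4 in these values was not tested beyond leaving libraries out.

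Cox6a2 was named for its small unadjusted p and is not a member of the nuclear respiratory list. Cox6a2, the heart and muscle form of a cytochrome c oxidase subunit (chr7:128205435-128206387, minus strand), was read at 1.87, 4.77, 4.39 and 4.10 CPM in SI_EE 1 to 4, against 7.19, 6.55, 6.38 and 10.4 CPM in SI_WT 1 to 4, without overlap. Its log2 fold change was -1.01 ± 0.25 with all 8 libraries and -0.78 ± 0.21 without SI_EE 1 (SE), and its means in the other groups were 7.04 CPM in SI_Con, 4.90 CPM in GH_EE, 5.27 CPM in GH_WT and 4.87 CPM in GH_Con. Ndufa12, an accessory subunit of complex I (chr10:94198720-94221443, plus strand), was read at 44, 32.3, 23 and 21.6 CPM in SI_EE 1 to 4, against 30.1, 54.9, 45.9 and 43.9 CPM in SI_WT 1 to 4. SI_EE 1 and SI_WT 1 crossed the other arm's values, and the log2 fold change was -0.53 ± 0.23 with all 8 libraries and -0.77 ± 0.22 without SI_EE 1 (SE). Cox6b1 and Uqcrq, subunits of complexes IV and III, ranged from 101 to 150.1 CPM in SI_EE and 122 to 206 CPM in SI_WT and from 61.9 to 92.3 CPM in SI_EE and 76.2 to 152 CPM in SI_WT. Both overlapped through SI_EE 1 alone. Among mitochondrially encoded genes, mt-Nd1 of complex I was read at 6613, 6513, 6327 and 6739 CPM in SI_EE 1 to 4, against 7006, 7929, 7145 and 9346 CPM in SI_WT 1 to 4 and mt-Atp6 of the ATP synthase at 5008, 5248, 4837 and 4981 CPM in SI_EE 1 to 4, against 5314, 5946, 5287 and 7749 CPM in SI_WT 1 to 4. Neither overlapped. Of the ribosomal genes, Rps2 ranged from 117 to 135 CPM in SI_EE and 157 to 257 CPM in SI_WT, without overlap, and Rps27a from 43.3 to 81.8 CPM in SI_EE and 61.4 to 122 CPM in SI_WT.

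Mrpl37, Letmd1 and Ucp3 were named for their small unadjusted p on the lower side. Mrpl37, a protein of the mitochondrial ribosome (chr4:107055874-107066868, minus strand), was read at 40.3, 31.5, 30.7 and 28.4 CPM in SI_EE 1 to 4, against 34.2, 39.4, 37.7 and 38.2 CPM in SI_WT 1 to 4, and only SI_EE 1 was not below the SI_WT values. Letmd1, an inner-membrane protein (chr15:100469023-100479164, plus strand), was read at 20.6, 23.3, 23.2 and 21 CPM in SI_EE 1 to 4, against 29.6, 32.2, 31.5 and 26.3 CPM in SI_WT 1 to 4, without overlap. Ucp3, a mitochondrial carrier of the uncoupling protein family (chr7:100472990-100486432, plus strand), was read at 1.99, 1.58, 1.98 and 0.601 CPM in SI_EE 1 to 4, against 3.30, 4.21, 2.32 and 2.52 CPM in SI_WT 1 to 4, also without overlap. The log2 fold change was -0.19 ± 0.10 with all 8 libraries and -0.30 ± 0.09 without SI_EE 1 (SE) for Mrpl37, -0.44 ± 0.11 with all 8 libraries and -0.41 ± 0.13 without SI_EE 1 (SE) for Letmd1 and -1.0 ± 0.31 with all 8 libraries and -1.15 ± 0.34 without SI_EE 1 (SE) for Ucp3. Slc52a2, a riboflavin transporter, ranged from 8.44 to 11.9 CPM in SI_EE and 11.4 to 13.3 CPM in SI_WT.

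The remaining genes on the lower side had mixed roles. Zfp131, a zinc finger transcription factor (chr13:119765187-119790889, minus strand), was read at 39.4, 14.2, 36.7 and 20.5 CPM in SI_EE 1 to 4, against 47.2, 47.1, 39.1 and 49.4 CPM in SI_WT 1 to 4, low in SI_EE 2 and SI_EE 4. Its log2 fold change was -0.72 ± 0.23 with all 8 libraries and -0.94 ± 0.23 without SI_EE 1 (SE). Smug1, a uracil-DNA glycosylase of base excision repair (chr15:103153290-103167092, minus strand), was read at 8.57, 10.7, 10.2 and 8.66 CPM in SI_EE 1 to 4, against 19, 16.7, 18.3 and 15.2 CPM in SI_WT 1 to 4, without overlap, with a log2 fold change of -0.86 ± 0.23 with all 8 libraries and -0.81 ± 0.26 without SI_EE 1 (SE). Ly6h, a GPI-anchored modulator of nicotinic receptors (chr15:75551268-75567255, minus strand), was read at 34.2, 28.1, 26.3 and 30.2 CPM in SI_EE 1 to 4, against 47.1, 32.4, 46.3 and 57.9 CPM in SI_WT 1 to 4. Only SI_EE 1 and SI_WT 2 overlapped. Bend5, a BEN-domain protein (chr4:111415006-111460298, plus strand), was read at 3.83, 6.86, 6.30 and 6.31 CPM in SI_EE 1 to 4, against 9.07, 10.8, 9.03 and 8.94 CPM in SI_WT 1 to 4, without overlap. The log2 fold change was -0.63 ± 0.18 with all 8 libraries and -0.70 ± 0.19 without SI_EE 1 (SE) for Ly6h and -0.70 ± 0.18 with all 8 libraries and -0.54 ± 0.16 without SI_EE 1 (SE) for Bend5.

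Arpc4 and Cfl1 were likewise named for their small unadjusted p. Arpc4, a subunit of the Arp2/3 complex that branches filaments (chr6:113378115-113390448, plus strand), was read at 77.1, 66.4, 91.5 and 76.4 CPM in SI_EE 1 to 4, against 109.9, 86, 107 and 134 CPM in SI_WT 1 to 4. Cfl1, the filament-severing protein cofilin (chr19:5490455-5495201, plus strand), was read at 328, 405, 361 and 360.4 CPM in SI_EE 1 to 4, against 624, 627, 378 and 533 CPM in SI_WT 1 to 4. Both overlapped between arms, and the log2 fold changes were -0.49 ± 0.13 with all 8 libraries and -0.48 ± 0.14 without SI_EE 1 (SE) for Arpc4 and -0.57 ± 0.16 with all 8 libraries and -0.52 ± 0.17 without SI_EE 1 (SE) for Cfl1. Pik3ca, the catalytic subunit of phosphoinositide 3-kinase alpha, ranged from 40.6 to 65.6 CPM in SI_EE and 64.3 to 111 CPM in SI_WT, Necab3, a neuronal calcium-binding protein, from 28.3 to 58.3 CPM in SI_EE and 61.5 to 84.3 CPM in SI_WT, and Trarg1, a regulator of glucose transporter trafficking, from 0.436 to 0.767 CPM in SI_EE and 1.01 to 1.58 CPM in SI_WT. Necab3 and Trarg1 did not overlap. Pdzph1, Tnfrsf13b (a receptor of B-cell survival factors) and the antisense RNA Particl had log2 fold changes of -0.78, -1.06 and -0.28 with all 8 libraries and -0.68, -1.0 and -0.55 without SI_EE 1. Whether the counting used strand is not given in the sources used here, so reads of Particl and of the gene opposite it cannot be told apart.

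**Figure D5:**
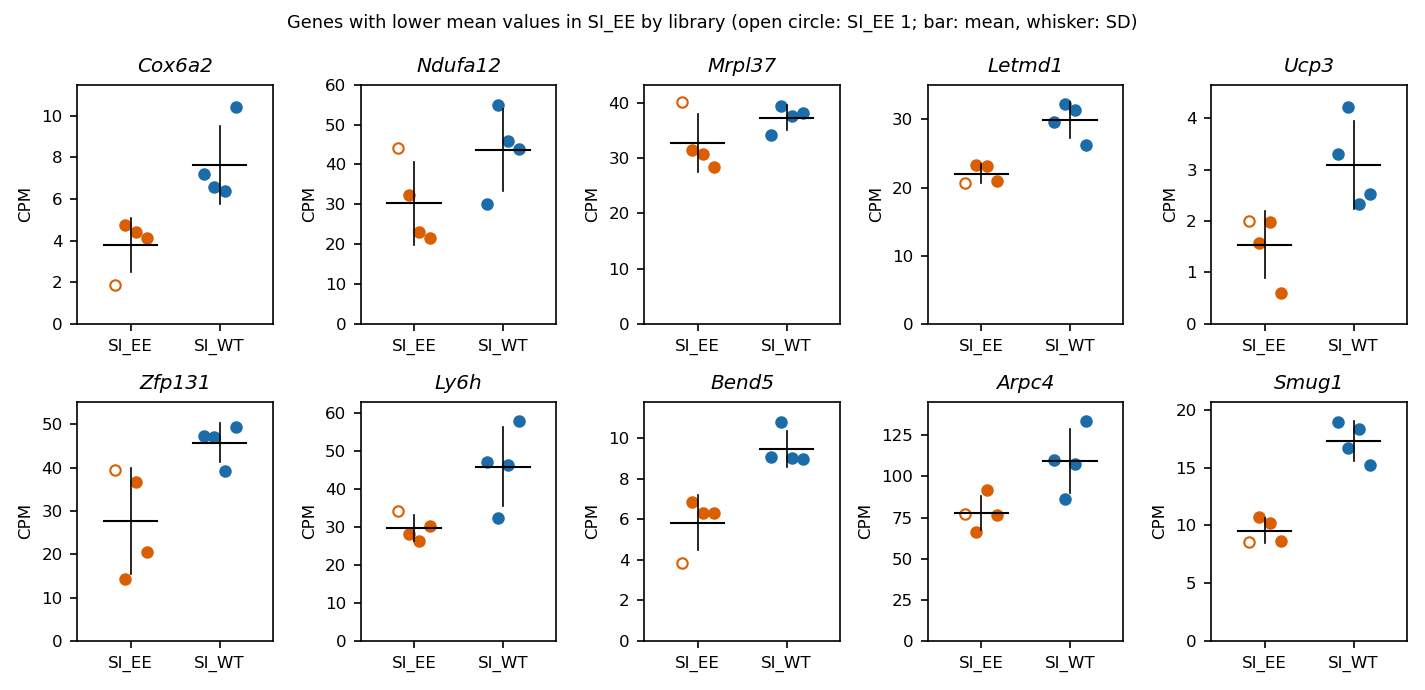
Read level in CPM (vertical axes, from 0) of 10 genes with lower means in SI_EE, with SI_EE left of SI_WT; the open circle is SI_EE 1, the bar the mean and the whisker the SD. Cox6a2, Letmd1, Ucp3, Bend5 and Smug1 have no overlap between arms, while in Mrpl37, Ndufa12, Zfp131 and Ly6h SI_EE 1 reaches into or above the SI_WT values.

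Microglial genes were lower on average in SI_EE, by amounts that depended on which libraries were kept. Of 14 homeostatic microglial genes, 2 were higher with all 8 libraries (median -0.37) and 4 without SI_EE 1 (median -0.14; -0.07 without SI_WT 4 as well). Their mean log2 CPM was 3.11, 3.73, 4.06 and 4.18 in SI_EE 1 to 4, against 4.17, 4.30, 3.83 and 4.33 in SI_WT 1 to 4. P2ry12, the purinergic receptor of resting microglia, was read at 13.5, 14.1, 23.4 and 17.7 CPM in SI_EE 1 to 4, against 25.3, 30.5, 21.3 and 34.9 CPM in SI_WT 1 to 4, and Tmem119 ranged from 10.1 to 17.8 CPM in SI_EE and 16.3 to 23.6 CPM in SI_WT. Of 25 plaque-associated microglial genes, 6 were higher with all 8 libraries (median -0.25) and 7 without SI_EE 1 (median -0.22), but 11 without SI_EE 1 and SI_WT 4 (median -0.01). Trem2, the lipid-sensing receptor of plaque microglia, was read at 4.46, 7.05, 11.8 and 15.4 CPM in SI_EE 1 to 4, against 14.3, 16.5, 8.73 and 37.7 CPM in SI_WT 1 to 4. Cst7, a cystatin of these cells, was read at 0.252, 0.245, 2.88 and 5.68 CPM in SI_EE 1 to 4, against 5.95, 6.44, 1.30 and 9.29 CPM in SI_WT 1 to 4. SI_EE 1 and SI_EE 2 were low for both, SI_WT 4 was high for both, and the arms overlapped. Spp1, osteopontin, went the other way at 31.6, 7.19, 7.65 and 10.5 CPM in SI_EE 1 to 4, against 6.37, 5.64, 5.66 and 7.09 CPM in SI_WT 1 to 4, without overlap and highest in SI_EE 1. Ctsb, the lysosomal protease cathepsin B, was read at 595, 705, 649 and 699.6 CPM in SI_EE 1 to 4, against 748, 780.0, 730.0 and 857 CPM in SI_WT 1 to 4, also without overlap and lower in SI_EE (-0.23 with all 8 libraries and -0.18 without SI_EE 1).

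Lysosomal genes, a list that Ctsb belongs to, were higher in 4 of 24 in both comparisons (medians -0.18 and -0.13), and in 6 of 24 without SI_EE 1 and SI_WT 4 (median -0.06). Glb1, the beta-galactosidase, ranged from 15.3 to 20.1 CPM in SI_EE and 21.5 to 24.3 CPM in SI_WT, without overlap, and Npc1, the lysosomal cholesterol exporter, had a log2 fold change of 0.17 with all 8 libraries and 0.28 without SI_EE 1. Complement genes were higher in 10 of 17 (median 0.08) and in 11 of 17 without SI_EE 1 (median 0.21). Cd59a, an inhibitor of the membrane attack complex, was read at 6.48, 8.23, 3.94 and 5.57 CPM in SI_EE 1 to 4, against 1.84, 3.96, 3.37 and 3.42 CPM in SI_WT 1 to 4, overlapping only between SI_EE 3 and SI_WT 2. The central component C3 ranged from 0.0545 to 1.58 CPM in SI_EE and 0.0400 to 0.204 CPM in SI_WT. Interferon response genes were higher in 18 of 25 (median 0.14) and in 17 of 25 without SI_EE 1 (median 0.12), but in 25 of 25 without SI_EE 1 and SI_WT 4 (median 0.43), and Parp14 among them had a log2 fold change of 0.48 with all 8 libraries and 0.60 without SI_EE 1. Antigen presentation genes were higher in 8 of 17 (median -0.11) and in 4 of 17 without SI_EE 1 (median -0.26), but in 8 of 17 without SI_EE 1 and SI_WT 4 (median -0.02), with the class I gene H2-K1 at -0.11 and -0.35. Among the complement, interferon and antigen presentation genes no p was under 0.05 on the lower side in either comparison.

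Among macroglial lists, the reactive astrocyte list had the median furthest from 0. Astrocyte marker genes were higher in 14 of 15 (median 0.26) and in 11 of 15 without SI_EE 1 (median 0.18; 0.07 without SI_WT 4 as well), none without overlap, and Glul, glutamine synthetase, had a log2 fold change of 0.03 with all 8 libraries and 0.15 without SI_EE 1. Reactive astrocyte genes were higher in 13 of 18 (median 0.65) and in 14 of 19 without SI_EE 1 (median 0.32, and 0.58 without SI_WT 4 as well). In each comparison 4 did not overlap, SI_EE above SI_WT, beside 2.26% of all genes with SI_EE 1 and 3.55% without it. Of these 4, Lcn2, the iron-scavenging protein lipocalin 2, was read at 3.33, 1.85, 9.55 and 0.547 CPM in SI_EE 1 to 4, against 0.0400, 0.468, 0.0765 and 0.232 CPM in SI_WT 1 to 4. It had the largest log2 fold change of the list, 4.25 ± 1.95 with all 8 libraries and 4.33 ± 2.11 without SI_EE 1 (SE), with unadjusted edgeR p of 0.041 and 0.0549. Cd109, a TGF-beta co-receptor, was read at 1.26, 0.381, 1.80 and 1.53 CPM in SI_EE 1 to 4, against 0.240, 0.275, 0.281 and 0.116 CPM in SI_WT 1 to 4, with a log2 fold change of 2.42 ± 0.68 with all 8 libraries and 2.42 ± 0.72 without SI_EE 1 (SE). Fbln5, an elastic fibre protein, was read at 4.06, 3.95, 4.66 and 5.16 CPM in SI_EE 1 to 4, against 2.64, 2.84, 2.47 and 3.59 CPM in SI_WT 1 to 4. Cp, the copper-binding ferroxidase ceruloplasmin, ranged from 11.7 to 20.3 CPM in SI_EE and 7.93 to 10.6 CPM in SI_WT. Gfap, the astrocyte filament, was read at 145, 88.5, 224 and 371 CPM in SI_EE 1 to 4, against 167, 273, 96.3 and 385 CPM in SI_WT 1 to 4 and overlapped widely between arms. Myelin and oligodendrocyte genes were higher in 19 of 23 in both comparisons (medians 0.11 and 0.20). Without SI_EE 1 and SI_WT 4 they were higher in 23 of 23 (median 0.25). Without SI_EE 1 alone, 3 did not overlap, SI_EE above SI_WT, beside 3.55% of all genes. Fa2h, the fatty acid hydroxylase of myelin lipids, was read at 40.6, 56.7, 56.8 and 63.3 CPM in SI_EE 1 to 4, against 39.8, 48.1, 34.2 and 41.3 CPM in SI_WT 1 to 4, with a log2 fold change of 0.41 ± 0.15 with all 8 libraries and 0.53 ± 0.14 without SI_EE 1 (SE). Ermn, a cytoskeletal protein of oligodendrocytes, ranged from 78.1 to 116 CPM in SI_EE and 79.5 to 90.8 CPM in SI_WT, and Mbp, myelin basic protein, from 424 to 623 CPM in SI_EE and 489.6 to 814 CPM in SI_WT. Precursor and newly forming oligodendrocyte genes were higher in 9 of 15 (median 0.05) and in 12 of 15 without SI_EE 1 (median 0.20), and Pdgfra, the receptor of these cells, had a log2 fold change of 0.14 with all 8 libraries and 0.31 without SI_EE 1. Cholesterol synthesis and transport genes were higher in 3 of 24 (median -0.28) and in 5 of 24 without SI_EE 1 (median -0.13). Without SI_EE 1 and SI_WT 4 they were higher in 1 of 24 (median -0.16). Fdps among them, a synthase of the isoprenoid pathway, was read at 29.3, 30.4, 39.1 and 35.9 CPM in SI_EE 1 to 4, against 43.7, 53.8, 38.2 and 65.6 CPM in SI_WT 1 to 4.

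Neuronal lists had medians below 0 with all 8 libraries, and their values depended on which libraries were kept. Forebrain pyramidal neuron genes were higher in 1 of 12 (median -0.25) but in 7 of 12 without SI_EE 1 (median 0.03). The pairs of counts and medians were 7 and 8 of 17 for cortical layer genes (-0.21 and -0.06) and 7 and 12 of 20 for interneuron genes (-0.08 and 0.07). Presynaptic genes were higher in 2 and 8 of 20 (-0.19 and -0.02), and glutamate receptor and postsynaptic genes in 7 and 18 of 24 (-0.13 and 0.07). GABA receptor genes were higher in 4 and 9 of 15 (-0.13 and 0.04), and monoamine and acetylcholine receptor genes in 6 and 16 of 29 (-0.21 and 0.07). Potassium channel genes were higher in 9 and 20 of 28 (-0.11 and 0.08), and perineuronal net and lectican genes in 6 and 9 of 16 (-0.05 and 0.08). For social and stress neuropeptide genes the counts were 6 of 23 (-0.23) and 13 of 24 without SI_EE 1 (0.04). In each pair the value with all 8 libraries comes before the value without SI_EE 1, and the medians without it lie within 0.08 of 0. Those medians rest on SI_WT 4 too. Without SI_EE 1 and SI_WT 4, potassium channel genes were higher in 7 of 28 (-0.10), GABA receptor genes in 4 of 15 (-0.10), monoamine and acetylcholine receptor genes in 11 of 29 (-0.11) and presynaptic genes in 3 of 20 (-0.08). The postsynaptic list stood at 9 of 24 (-0.02), the pyramidal list at 3 of 12 (-0.06), the cortical layer list at 6 of 17 (-0.05) and the interneuron list at 10 of 20 (-0.00). Neuropeptide genes were then higher in 11 of 24 (-0.01) and perineuronal net genes in 9 of 16 (0.03).

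A few neuronal genes had larger differences. Stx1a, the synaptic fusion protein syntaxin 1A, was read at 53.6, 213, 200.5 and 201 CPM in SI_EE 1 to 4, against 260.4, 270.4, 232 and 302 CPM in SI_WT 1 to 4, without overlap, with a log2 fold change of -0.67 ± 0.27 with all 8 libraries and -0.38 ± 0.15 without SI_EE 1 (SE). Pvalb, the calcium buffer of fast-spiking interneurons, was read at 502, 78.3, 68.9 and 66.2 CPM in SI_EE 1 to 4, against 85.9, 98.6, 82 and 145 CPM in SI_WT 1 to 4. It is high in Purkinje cells, and the 3 other SI_EE libraries lay below all 4 SI_WT libraries, and its log2 fold change was 0.80 ± 0.46 with all 8 libraries and -0.53 ± 0.19 without SI_EE 1 (SE). Crhbp, a binding protein of corticotropin-releasing hormone made by interneurons, ranged from 5.95 to 16.4 CPM in SI_EE and 17.3 to 22.1 CPM in SI_WT, without overlap. Htr2c, a serotonin receptor, was read at 22.6, 11.9, 27.9 and 31.2 CPM in SI_EE 1 to 4, against 13.5, 12.3, 14.7 and 6.05 CPM in SI_WT 1 to 4, low in SI_WT 4 and SI_EE 2.

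Genes of neuronal activity and growth, which enriched housing is known to engage, had list medians within 0.16 of 0. Immediate early genes were higher in 9 of 30 (median -0.16) and in 15 of 30 without SI_EE 1 (median -0.06). Fos was read at 29.5, 32.1, 31.9 and 22.7 CPM in SI_EE 1 to 4, against 19.7, 41.6, 22.1 and 23.4 CPM in SI_WT 1 to 4. Jun, its partner in AP-1, was read at 46.7, 51.9, 40.0 and 36.7 CPM in SI_EE 1 to 4, against 36.6, 36.6, 35 and 34.1 CPM in SI_WT 1 to 4, with every SI_EE library above every SI_WT library by a narrow margin and a log2 fold change of 0.30 ± 0.15 with all 8 libraries and 0.27 ± 0.16 without SI_EE 1 (SE). Neurotrophin and growth factor genes were higher in 10 of 19 (median 0.01) and in 15 of 19 without SI_EE 1 (median 0.16; 0.05 without SI_WT 4 as well). Bdnf, the main neurotrophin of the cortex, was read at 22.6, 39.7, 39 and 35.9 CPM in SI_EE 1 to 4, against 37, 42, 33.2 and 29.4 CPM in SI_WT 1 to 4, with a log2 fold change of -0.05 ± 0.19 with all 8 libraries and 0.11 ± 0.18 without SI_EE 1 (SE). Ntf3, neurotrophin 3, ranged from 0.164 to 2.02 CPM in SI_EE and 0 to 0.153 CPM in SI_WT, without overlap and highest in SI_EE 1.

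Stress, clock and protein-folding lists had medians near 0. Glucocorticoid response genes were higher in 13 of 21 (median 0.14) and in 12 of 21 without SI_EE 1 (median 0.04), with Hif3a, a hypoxia-inducible factor subunit, at 4.44, 8.55, 6.83 and 3.77 CPM in SI_EE 1 to 4, against 3.88, 3.0, 2.53 and 3.59 CPM in SI_WT 1 to 4. Circadian clock genes were higher in 10 of 17 (median 0.01) and in 11 of 17 without SI_EE 1 (median 0.04), with Npas2 at -0.16 with all 8 libraries and 0.18 without SI_EE 1. Heat shock and unfolded protein genes were higher in 16 of 24 (median 0.08) and in 21 of 24 without SI_EE 1 (median 0.13), with the chaperone Hspa5 at 0.19 with all 8 libraries and 0.42 without SI_EE 1. Amyloid processing and clearance genes were higher in 14 of 22 (median 0.04) and in 13 of 22 without SI_EE 1 (median 0.11), and Ide, the insulin-degrading enzyme, had a log2 fold change of -0.37 with all 8 libraries and -0.47 without SI_EE 1. Sex-linked genes were higher in 6 of 9 in both comparisons (medians 0.26 and 0.15) and followed the sex pattern of the libraries.

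Whether the difference between the arms depended on housing was tested as an interaction, (SI_EE minus SI_WT) minus (GH_EE minus GH_WT). edgeR called 0 of 20354 genes (0% in either direction; smallest adjusted p 0.425), with 1438 genes (7.06%) at an unadjusted p under 0.05, 1094 higher (5.37%) and 344 lower (1.69%). DESeq2 called 39, 34 higher (0.167%) and 5 lower (0.0246%). The interaction was above 0 for 51.7% of genes and below 0 for 48.3%. Without SI_EE 1, edgeR called 0 of 20718 genes, and 1038 (5.01%) had an unadjusted p under 0.05. Among the genes with the smallest p, Bmp7, a bone morphogenetic protein of the meninges, averaged 7.51 ± 2.09 CPM in SI_EE, 4.21 ± 0.787 CPM in SI_WT, 5.50 ± 0.443 CPM in GH_EE and 8.23 ± 2.10 CPM in GH_WT (SD, n = 4 each), and its interaction was 1.41 ± 0.30 (unadjusted edgeR p 9.69e-05). Dcn averaged 9.52 ± 6.23 CPM in SI_EE, 2.74 ± 0.765 CPM in SI_WT, 5.61 ± 0.887 CPM in GH_EE and 8.45 ± 3.79 CPM in GH_WT, an interaction of 2.39 ± 0.53. EE was thus above WT under isolation and below it in the GH housing for both genes. The thalamic and habenular genes Lhx9 and Gpr151 and the astrocytic gene Agt had interactions of 10.07 ± 2.22, 4.63 ± 0.99 and 4.52 ± 0.97, and GH_WT held the highest Gpr151 mean, 4.54 ± 4.62 CPM (SD, n = 4). On the negative side were Cfl1 (-0.97 ± 0.22), Arpc4 (-0.71 ± 0.18), Glcci1 (-3.37 ± 0.88), the SNARE gene Vti1b (-0.69 ± 0.19) and the dystrobrevin gene Dtnb (-0.42 ± 0.12). Cfl1 averaged 364 ± 31.7 CPM in SI_EE, 541 ± 117 CPM in SI_WT, 499 ± 124 CPM in GH_EE and 379 ± 18 CPM in GH_WT. Glcci1 averaged 10.8 ± 4.57 CPM in SI_EE, 13.2 ± 9.64 CPM in SI_WT, 53.2 ± 15.3 CPM in GH_EE and 6.33 ± 2.01 CPM in GH_WT, with GH_EE the highest of the 4. Without SI_EE 1 the SI_EE means were 6.82 ± 1.93 CPM for Bmp7, 6.41 ± 0.516 CPM for Dcn, 10.7 ± 1.91 CPM for Agt and 2.15 ± 2.48 CPM for Lhx9 (SD, n = 3), so for Dcn, Agt and Lhx9 much of the SI_EE mean came from SI_EE 1. The interactions without SI_EE 1 were 1.28 ± 0.29 for Bmp7, 1.82 ± 0.45 for Dcn, 3.06 ± 0.73 for Agt and 8.41 ± 2.13 for Lhx9 (SE), with adjusted edgeR p of 0.791 for each. The median interaction of the meningeal list was 1.71, with 12 of 16 genes at an unadjusted p under 0.05, and that of the thalamic list was 3.80, with 12 of 15, beside a median of 0.014 over all genes and 7.06% of genes. SI_EE 1 was the highest SI_EE library for both lists. Without it the medians were 1.30, with 6 of 16 genes at an unadjusted p under 0.05, and 3.20, with 12 of 15, beside 0.009 over all genes and 5.01% of genes. The choroid plexus and blood lists had higher median interactions, 4.64 and 4.20, with 11 and 4 genes at an unadjusted p under 0.05. Without SI_EE 1 their medians were 4.91, with 12 of 16 genes, and 3.89, with 4 of 8. Both lists varied widely between the SI_EE libraries, as given above. The GH libraries enter the thalamic value too. That list averaged 3.07 ± 1.57 log2 CPM in GH_WT (1.63 to 4.45) and 1.76 ± 0.39 in GH_EE. In SI_EE it averaged 2.49 ± 0.81 (2.18 ± 0.62 without SI_EE 1, n = 3) and in SI_WT 1.47 ± 0.09 (SD, n = 4 otherwise).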

How the data were processed

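Total RNA of medial prefrontal cortex was extracted with Trizol and column clean-up and sequenced on Illumina libraries, per the labels' protocols. The authors deposited 1 table of raw read counts per gene for all 24 libraries, whole numbers by their values. The genome build was mm10, per the submitters' processing notes. For the aligner, the counter, its annotation and whether it used strand, the sources used here give nothing. Of 56750 entries, 52075 (91.8%) were paired with a symbol, and entries without one held 0.421% of reads. Positions are from GENCODE release 21 of the mouse series (GRCm38).

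Counts were analysed in R 4.3.3 with edgeR 4.0.16 (filterByExpr, TMM scaling, robust quasi-likelihood test, Benjamini-Hochberg adjustment over all genes tested), in 1 fit of all 24 libraries, repeated without SI_EE 1. DESeq2 1.42.0 and limma 3.58.1 (voom) were alternatives, and Python 3.11.15, pandas 2.3.3 and scipy 1.17.1 served for the rest. CPM values are scaled by TMM, list levels are mean log2 CPM with a prior count of 2, and an SE is the log2 fold change divided by the square root of F. Scripts were tested on simulated counts with known changes, with all libraries and without SI_EE 1. There DESeq2 called 29 and 28 unchanged genes, and edgeR 6 and 8. Of 50 genes changed 1.5-fold edgeR recovered 15 and 16, and of 50 changed 2-fold 35 and 36. Smaller changes can thus be missed by edgeR. The changed genes were drawn only from genes with more reads, so recovery of low genes such as Col5a2 and Cd109 was not measured. Precision is limited by 4 libraries a group and the depths given above.

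Named genes were the 10 with the smallest p in each direction of each comparison (mean CPM of at least 1, no predicted genes), up to 4 per list, 5 per direction for the interaction, and a fixed set that includes the human APP entry. Ttr, Col18a1, Slc47a1, Ptgds and the mural genes Cnn1, Pdgfrb, Rgs5, Kcnj8 and Abcc9 were added after their values were seen. The libraries, members and lists were chosen with earlier results of these data known. Sex was inferred from Xist counts alone and used only as a covariate in an alternative. The human APP entry was recognised by its capital spelling, and the sequence counted is not given in the sources used here. Other alternatives were the scaling, the filter, only the 8 libraries, a replicate block and leaving out each library. Results for 1 item are not reported here. Titles number the replicates 1 to 4 in every group.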

Additional observations from a re-analysis of the deposited data

Results flagged for a closer look

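In each group of 4 libraries, a value was picked out where the gap between the highest or lowest library and its nearest neighbour, divided by the range of the group, exceeded Dixon's critical value for 4 samples. This picked out 43 of 284 group values, 24 in SI_EE 1, 10 in SI_WT 4 and 9 in other libraries. Chance picks out about 1 in 20 groups when values are independent and normally distributed. That rate is no yardstick here, because the genes and lists vary together and were chosen with earlier results of these data known.

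SI_EE 1 stood above the rest of its arm for the cerebellar genes Cbln1 (609 CPM), Zic1 (719 CPM), En2 (85.8 CPM) and Gdf10 (106 CPM), and for Tfap2b (30.2 CPM), Ltbp2 (50.2 CPM) and Pvalb (502 CPM). It also stood above for the proteoglycans Ogn (11.1 CPM), Dcn (18.8 CPM) and Fmod (26.7 CPM), for Spp1 (31.6 CPM) and for Agt (86.6 CPM). It stood below for App (763 CPM), Stx1a (53.6 CPM), Crhbp (5.95 CPM) and Npas2 (10.2 CPM). Its mean log2 CPM was apart for the cerebellar (8.19), pyramidal (5.77), cortical layer (4.39), interneuron (4.30), striatal (2.62), GABA receptor (6.18), monoamine (2.18) and neuropeptide (1.92) lists.

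SI_WT 4 stood above its arm for Uqcrq (152 CPM), Rps2 (257 CPM), Rps27a (122 CPM), Mbp (814 CPM) and Cldn2 (0.116 CPM), and below it for Ermn (79.5 CPM). Its mean log2 CPM was low for the pyramidal (7.28), presynaptic (9.13), postsynaptic (7.14) and GABA receptor (6.51) lists.

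SI_EE 3 stood above for the choroid plexus genes Ttr (522 CPM), Kl (25.2 CPM) and Cldn2 (4.21 CPM). SI_EE 4, the library with the female pattern, stood apart for Xist (791 CPM) and for the sex-linked list (2.91 mean log2 CPM). SI_WT 1 stood above for Glcci1 (27.6 CPM), SI_WT 2 for Bend5 (10.8 CPM) and the immediate early list (5.31 mean log2 CPM), and SI_WT 3 below for Vti1b (102 CPM).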

How the results depend on the processing

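edgeR called 0 genes in the comparison with all 8 libraries, in that without SI_EE 1 and in the interaction, and this held with other size factors, no filter and the replicate block, and, for the first 2, with only the 8 libraries, sex as a covariate or limma-voom. DESeq2 called 86, 18 and 39 genes. Leaving out 1 library gave 0 to 1 calls with all 8 (Lrrc8d without SI_EE 3 or Tgfbr1 without SI_EE 4), 0 to 2 without SI_EE 1 (Zfp131 and Lrrc8d without SI_EE 3) and 0 to 1 in the interaction (Gm5514 without GH_EE 3). Lrrc8d, Tgfbr1 and Gm5514 were chosen after their values were seen, and the cause was not tested.

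Same-numbered SI_EE and SI_WT libraries had correlations of -0.155, 0.0148, 0.0736 and -0.129 across genes for replicates 1 to 4. Differently numbered libraries reached 0.217 (SI_EE 1 with SI_WT 4) and -0.193 (SI_EE 3 with SI_WT 4). Because SI_EE 1 and SI_WT 4 stand apart within their arms, these correlations cannot show whether the numbers pair the libraries. With the replicate block, edgeR called 0 genes in each comparison.

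Of the alternative values for named genes, 2857 kept direction and side of the threshold, 29 passed it where the reported value did not (28 by DESeq2, and Zfp131 as above) and 31 changed sign. Of list medians, 368 moved by less than the spread between replicates and 42 by more. Without SI_EE 1, Gfap was 0.03 with the sex covariate and Mbp 0.00 by limma-voom. On leaving out 1 library from all 8, the ranges were -0.19 to 0.13 for App, -0.35 to 0.03 for H2-K1, -0.60 to 0.21 for Gfap, -0.04 to 0.15 for Glul, -0.21 to 0.07 for Mbp, -0.02 to 0.31 for Pdgfra, -0.13 to 0.11 for Bdnf, -0.00 to 0.41 for Fos, -0.53 to 1.07 for Pvalb, -0.32 to 0.18 for Npas2 and -0.54 to 0.35 for Glcci1. Without SI_EE 1 and 1 more library they were -0.01 to 0.23 for App, -8.54 to 0.26 for Xist, -0.55 to 0.35 for Gfap, -0.10 to 0.17 for Mbp, -0.00 to 0.42 for Fos and -0.81 to 0.31 for Glcci1. The cause of these sign changes was not tested.

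The interferon median without SI_EE 1 (0.12) was 0.43 without SI_WT 4 as well and -0.15 without SI_EE 4. The arms hold 4 libraries each, 1 of them with cerebellar transcripts and 1 tilted to short transcripts, and 1 SI_EE and 2 SI_WT libraries have the female pattern. Depth was at least 33683587 reads in each library. Low genes such as Cldn2 and Lhx9 rest on few reads, and the spread between libraries limits the others.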
